A study of Saccharomyces cerevisiae with 8 samples.

Results

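The nuclear genes of the mitochondrial respiratory chain and of ATP synthase were followed in 3 strains of budding yeast. The set holds 40 genes, taken by their standard symbols. It comprises 1 NADH dehydrogenase gene (NDI1), 4 genes of succinate dehydrogenase, 9 of the cytochrome bc1 complex, 2 of cytochrome c, 9 of cytochrome c oxidase, 3 supercomplex factors, 5 of the catalytic F1 part of ATP synthase and 7 of its membrane part and stalk. All 40 were on the array, out of 6576 named genes and features, each with 1 probe that was well above background on all 8 arrays. All 40 were therefore among the 6244 names that were tested.

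The respiratory chain carries electrons from NADH and succinate through ubiquinone, the bc1 complex and cytochrome c to cytochrome c oxidase, and the proton gradient that results drives ATP synthase. Saccharomyces cerevisiae has no proton-pumping complex I and oxidises matrix NADH with the single protein Ndi1. When glucose is plentiful the cells ferment, and the nuclear genes of the chain are held at a low level until the Hap2/3/4/5 activator, limited by its Hap4 subunit, turns them up.

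All 3 strains lacked IRE1, which encodes the sensor of unfolded proteins in the endoplasmic reticulum, so no sample had the intact gene. SSZ1OEΔire1Δscj1 (n = 3) carried in addition an overexpressed SSZ1, the gene of a ribosome-bound relative of Hsp70, and a deletion of SCJ1, the gene of a J-protein that assists the Hsp70 of the endoplasmic reticulum lumen. SSZ1OEΔire1 (n = 2) carried the overexpression without the SCJ1 deletion, and Δire1 (n = 3) carried the IRE1 deletion alone. Cells were harvested in early log phase from synthetic medium at 30 °C and 200 rpm, at an OD600 of 0.2 to 0.3, and the labels name neither the carbon source nor the promoter or plasmid behind the overexpression. Each sample has a source name of its own and is described as independent, but nothing says that the samples came from separate cultures or clones. The spread behind the p-values may therefore be technical.

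Each RNA was read on its own one-colour Agilent array, all on a single slide. A level is the mean log2 signal of a probe's spots minus the array's 75th percentile, and a difference of 1 on this scale is a doubling. A gene was called higher or lower where its limma adjusted p over all tested genes was below 0.05. SSZ1 was 5.29-fold higher in SSZ1OEΔire1Δscj1 and 7.30-fold higher in SSZ1OEΔire1 than in Δire1 (limma adjusted p = 0.000182 and 0.000674), SCJ1 was nowhere well above background on the SSZ1OEΔire1Δscj1 arrays, nor was IRE1 on any of the 8 arrays. The 75th percentile of signal was 9041 to 10016.5 on the SSZ1OEΔire1Δscj1 arrays, 5037 to 6291 on the SSZ1OEΔire1 arrays and 5417 to 7152 on the Δire1 arrays, and 0 spots were saturated. All SSZ1OEΔire1Δscj1 arrays lay in slide row 2 beside Δire1 replicate 3, whereas row 1 was filled by the SSZ1OEΔire1 pair and the remaining Δire1 arrays. Δire1 replicate 2 stood apart from the other Δire1 arrays: its genes differed from theirs by a median of 0.20 to 0.21, while Δire1 replicates 1 and 3, which lie in different rows, differed by 0.056. Replicates of SSZ1OEΔire1 differed by 0.096 and those of SSZ1OEΔire1Δscj1 by 0.096 to 0.14.

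Most of the 40 genes passed no test. Against Δire1, 4 of the 40 (10%) were called in SSZ1OEΔire1Δscj1, with COX7, SDH3 and RCF3 higher and RCF2 lower, where 38.3% of all tested genes were called (21.3% higher and 16.9% lower). In SSZ1OEΔire1, 5 of the 40 (12.5%) were called against Δire1, with COX7, COX9 and CYC7 higher and RCF2 and RCF3 lower, against a background of 11.4% (7.48% higher and 3.88% lower). Between SSZ1OEΔire1Δscj1 and SSZ1OEΔire1, 2 of the 40 (5%) were called, RCF3 higher and CYC7 lower in SSZ1OEΔire1Δscj1, against 11.9% of all tested genes (6.28% higher and 5.57% lower). The first 2 comparisons share the Δire1 arrays. The array measures transcripts in bulk RNA, in which fewer cells with a transcript and less of it per cell cannot be told apart.

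The median difference over the 40 genes was 0.03 in SSZ1OEΔire1Δscj1 against Δire1, where it was 0.02 over all tested genes. It was 0.13 in SSZ1OEΔire1 against Δire1 (0.03 over all tested genes), with 33 differences above 0 and 7 below, and with 1 array left out it ranged from 0.027 (without SSZ1OEΔire1 replicate 1) to 0.265 (without SSZ1OEΔire1 replicate 2). For SSZ1OEΔire1Δscj1 against SSZ1OEΔire1 it was −0.12, with 10 above 0 and 30 below, where the median of all tested genes was −0.0046. This median also moved with single arrays: without SSZ1OEΔire1 replicate 1 it was 0.0045, and without SSZ1OEΔire1 replicate 2 it was −0.28. The quartiles over all tested genes were −0.13 and 0.22 in SSZ1OEΔire1 against Δire1 and −0.19 and 0.19 in SSZ1OEΔire1Δscj1 against SSZ1OEΔire1. The 40 differences of a comparison come from the same arrays, so the counts above and below 0 are not independent observations. The arrays of the groups did not overlap for 11 of the 40 genes in each comparison. In SSZ1OEΔire1Δscj1 against Δire1, 7 lay above and 4 below, where 50.6% of all tested genes did not overlap (27.3% above and 23.3% below). For SSZ1OEΔire1 against Δire1, 9 lay above and 2 below, where the shares of all tested genes were 46.4% in all, 26.9% above and 19.5% below. In SSZ1OEΔire1Δscj1 against SSZ1OEΔire1, 3 lay above and 8 below, where 59% of all tested genes did not overlap, 29.5% above and 29.5% below.

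**Figure D1:**
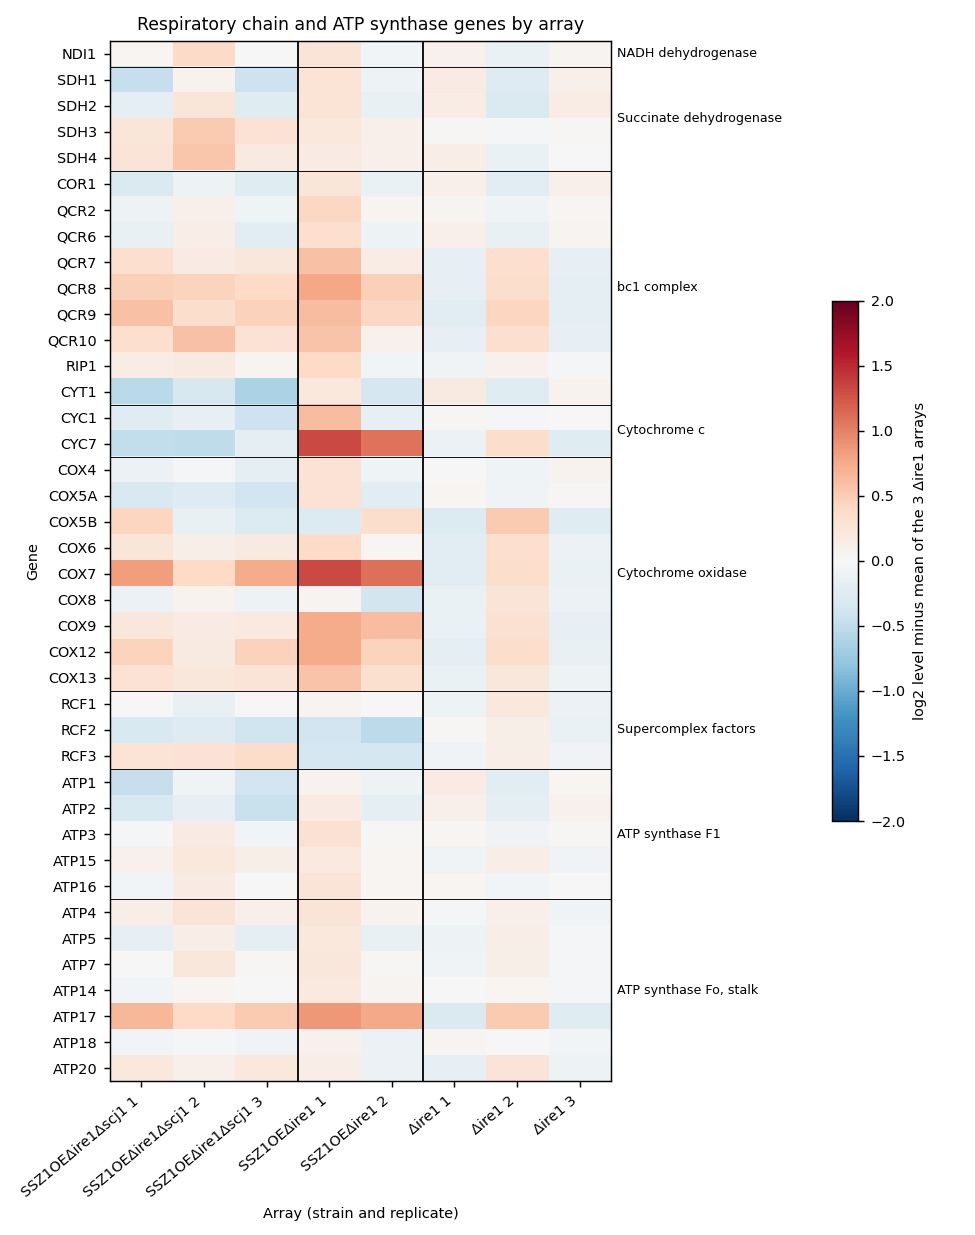
Levels of the 40 genes on each of the 8 arrays, shown as log2 level minus the mean of the Δire1 arrays (colour), with genes down the page in blocks by complex and arrays across in groups. COX7 and CYC7 stand highest on the SSZ1OEΔire1 arrays, and Δire1 replicate 2 differs from Δire1 replicates 1 and 3 in many rows.

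The electron entry points came first in the chain. NDI1, which encodes the internal NADH dehydrogenase, had levels of −1.15, −0.81 and −1.18 in SSZ1OEΔire1Δscj1, −0.93 and −1.24 in SSZ1OEΔire1, and −1.10, −1.32 and −1.14 in Δire1. The groups overlapped, and no difference exceeded 0.14.

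Of the succinate dehydrogenase genes, the 2 that encode the membrane anchor lay higher in SSZ1OEΔire1Δscj1 than in either other strain. SDH3, the cytochrome b subunit of the anchor, had levels of 0.72, 0.99 and 0.76 in SSZ1OEΔire1Δscj1, 0.68 and 0.58 in SSZ1OEΔire1, and 0.49, 0.44 and 0.49 in Δire1. All SSZ1OEΔire1Δscj1 arrays lay above all others. The gene rose by 0.35 in SSZ1OEΔire1Δscj1 against Δire1 (SE 0.09, limma adjusted p = 0.0172), while its differences in SSZ1OEΔire1 against Δire1 (0.16, adjusted p = 0.331) and in SSZ1OEΔire1Δscj1 against SSZ1OEΔire1 (0.19, adjusted p = 0.211) did not pass. The call of SDH3 held under 18 of 21 alternatives and was lost within slide row 2 (0.33, adjusted p = 0.167), with the row as a block (adjusted p = 0.127) and without Δire1 replicate 3 (0.36, adjusted p = 0.0538).

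SDH4, the other anchor subunit, had levels of 0.42, 0.72 and 0.34 in SSZ1OEΔire1Δscj1, 0.32 and 0.27 in SSZ1OEΔire1, and 0.30, 0.03 and 0.15 in Δire1. The SSZ1OEΔire1Δscj1 arrays lay above all others, while SSZ1OEΔire1 and Δire1 overlapped, and the difference of SSZ1OEΔire1Δscj1 from Δire1 missed the threshold (0.33, SE 0.12, adjusted p = 0.0549). The catalytic subunits differed in the other direction. SDH1, the flavoprotein, differed by −0.27 (SE 0.18, adjusted p = 0.275) and SDH2, the iron-sulfur subunit, by −0.07 (SE 0.19, adjusted p = 0.803) in SSZ1OEΔire1Δscj1 against Δire1, and neither passed. In SSZ1OEΔire1 against Δire1, SDH1 differed by 0.08 and SDH2 by 0.06, both within the spread of the arrays.

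None of the 9 genes of the bc1 complex, which passes electrons from ubiquinol to cytochrome c, was called in any comparison. Before adjustment, p was under 0.05 for 3 of them in SSZ1OEΔire1Δscj1 against Δire1, for 2 in SSZ1OEΔire1 against Δire1 and for 0 in SSZ1OEΔire1Δscj1 against SSZ1OEΔire1, where this held for 48.5%, 28.6% and 31.8% of all tested genes. CYT1, the cytochrome c1 subunit, had levels of 0.77, 0.98 and 0.67 in SSZ1OEΔire1Δscj1, 1.52 and 0.98 in SSZ1OEΔire1, and 1.49, 1.07 and 1.37 in Δire1. All SSZ1OEΔire1Δscj1 arrays lay below all Δire1 arrays, by a difference of −0.50 (SE 0.17) that narrowly missed the threshold (adjusted p = 0.0508) and passed it under 8 of 21 alternatives. In SSZ1OEΔire1 the gene differed from Δire1 by −0.06 (adjusted p = 0.867), and its 2 arrays lay 0.54 apart.

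QCR8, which lies next to cytochrome b, had levels of 1.42, 1.38 and 1.33 in SSZ1OEΔire1Δscj1, 1.70 and 1.42 in SSZ1OEΔire1, and 0.77, 1.30 and 0.74 in Δire1. Both SSZ1-overexpressing strains lay above every Δire1 array, by 0.44 in SSZ1OEΔire1Δscj1 (SE 0.16, adjusted p = 0.059) and by 0.62 in SSZ1OEΔire1 (SE 0.17, adjusted p = 0.06). QCR9 had levels of 1.59, 1.34 and 1.45 in SSZ1OEΔire1Δscj1, 1.61 and 1.42 in SSZ1OEΔire1, and 0.77, 1.42 and 0.79 in Δire1. Here Δire1 replicate 2 lay inside the range of the other strains, while Δire1 replicates 1 and 3 lay below it.

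QCR9 differed from Δire1 by 0.46 in SSZ1OEΔire1Δscj1 (adjusted p = 0.0751) and by 0.52 in SSZ1OEΔire1 (adjusted p = 0.138). QCR10 differed by 0.40 and 0.33, and QCR7 by 0.24 and 0.36, in the same comparisons, and none passed. The core proteins COR1 and QCR2, the hinge protein QCR6 and the Rieske iron-sulfur protein RIP1 differed by −0.21 to 0.13 in SSZ1OEΔire1Δscj1 and by 0.06 to 0.23 in SSZ1OEΔire1, again without a call.

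Cytochrome c, the soluble carrier between the bc1 complex and cytochrome c oxidase, is encoded by CYC1 (isoform 1, the main form in aerobic cells) and CYC7 (isoform 2, known as the form favoured at low oxygen). CYC7 had levels of −2.93, −2.94 and −2.61 in SSZ1OEΔire1Δscj1, −1.11 and −1.34 in SSZ1OEΔire1, and −2.55, −2.08 and −2.68 in Δire1. Both SSZ1OEΔire1 arrays lay above all 6 other arrays, while the other strains overlapped.

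CYC7 rose 2.31-fold in SSZ1OEΔire1 against Δire1 (log2 difference 1.21, SE 0.19, limma adjusted p = 0.0113). It was 3.03-fold lower in SSZ1OEΔire1Δscj1 than in SSZ1OEΔire1 (−1.60, SE 0.19, adjusted p = 0.00955). The difference of SSZ1OEΔire1Δscj1 from Δire1 was −0.39 (SE 0.17) and did not pass (adjusted p = 0.108). Within slide row 1, where SSZ1OEΔire1 can be set against Δire1 replicates 1 and 2, the rise was 1.09 (adjusted p = 0.0919). Without SSZ1OEΔire1 replicate 1 it was 1.09 (adjusted p = 0.0651), and without replicate 2 it was 1.33 (adjusted p = 0.0736). In these fits, here and for the genes below, the lone SSZ1OEΔire1 array was assumed to vary like the other groups. The rise was called under 17 of 21 alternatives, with slide row as a block among them (1.09, adjusted p = 0.0357). The lower level in SSZ1OEΔire1Δscj1 than in SSZ1OEΔire1 missed the threshold without SSZ1OEΔire1 replicate 1 (−1.48, adjusted p = 0.0976) and with slide row as a block (−1.24, adjusted p = 0.197), a fit in which the 2 strains, which share no row, are compared only through the Δire1 arrays.

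CYC1 had levels of 2.07, 2.15 and 1.90 in SSZ1OEΔire1Δscj1, 2.92 and 2.14 in SSZ1OEΔire1, and 2.33, 2.27 and 2.32 in Δire1. The SSZ1OEΔire1Δscj1 arrays lay below every Δire1 array, but the difference of −0.27 (SE 0.18) did not pass (adjusted p = 0.281), and the SSZ1OEΔire1 arrays lay on both sides of the Δire1 range. The CYC1 difference of SSZ1OEΔire1 from Δire1 was 0.22 (SE 0.21, adjusted p = 0.511). The log2 ratio of the CYC7 probe to the CYC1 probe averaged −4.86 ± 0.31 in SSZ1OEΔire1Δscj1 (SD, n = 3), −3.76 ± 0.39 in SSZ1OEΔire1 (n = 2) and −4.74 ± 0.35 in Δire1 (n = 3). Since probes differ in their own response, only the change of this ratio between strains can be read, and it was 0.98 between SSZ1OEΔire1 and Δire1 and −0.13 between SSZ1OEΔire1Δscj1 and Δire1.

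**Figure D2:**
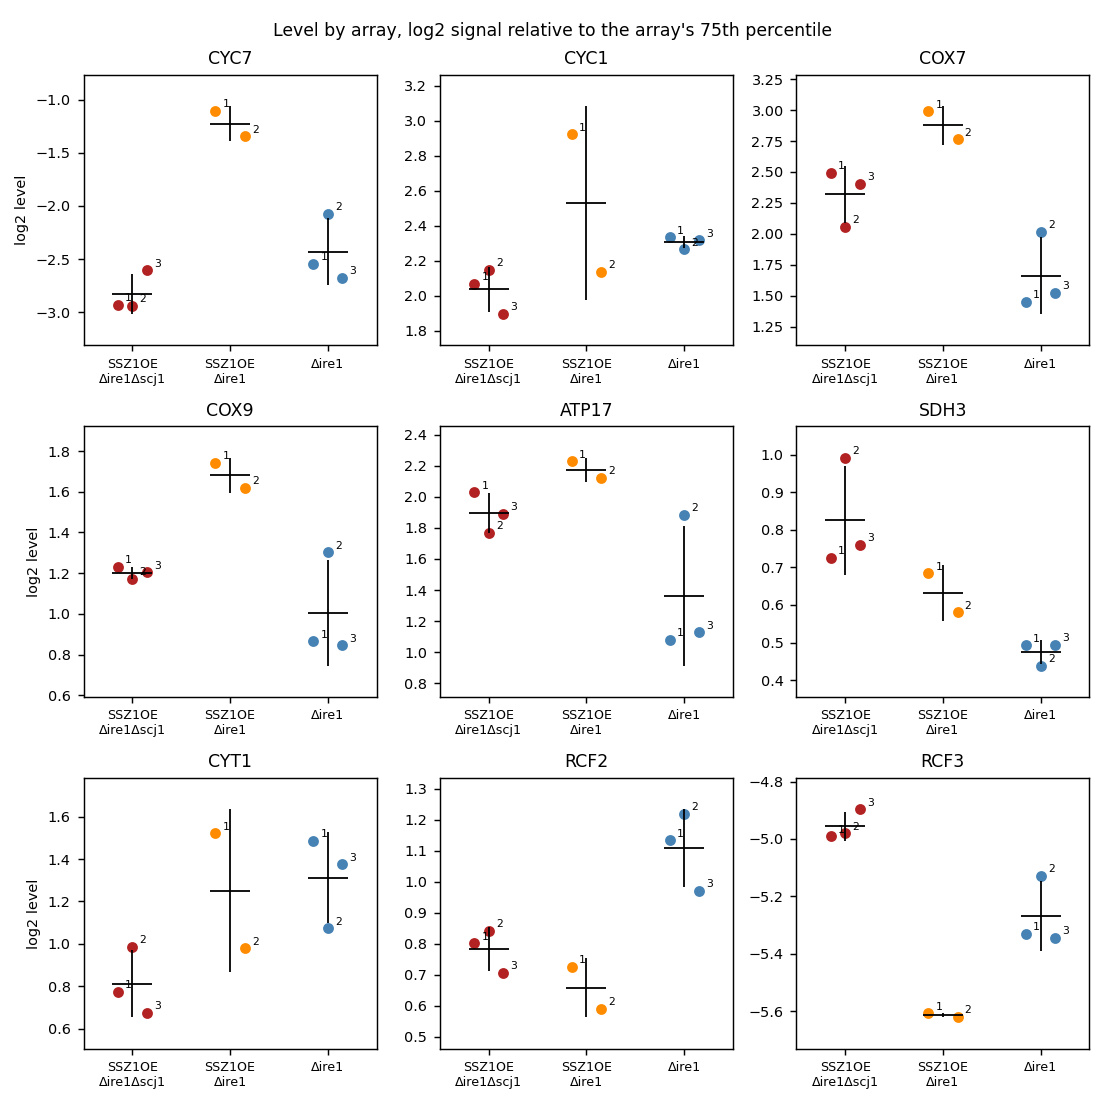
Log2 level relative to the array's 75th percentile (y axis) of 9 genes in SSZ1OEΔire1Δscj1, SSZ1OEΔire1 and Δire1, with 1 point per array and the group mean ± SD as a bar. CYC7 on the 2 SSZ1OEΔire1 arrays, at −1.11 and −1.34, lies above all 6 other arrays, and COX7 is ordered SSZ1OEΔire1, SSZ1OEΔire1Δscj1, Δire1 without overlap.

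Cytochrome c oxidase, the terminal enzyme, held the member with the highest difference from Δire1 in both strains. COX7, which encodes the small subunit VII, had levels of 2.49, 2.06 and 2.40 in SSZ1OEΔire1Δscj1, 2.99 and 2.76 in SSZ1OEΔire1, and 1.45, 2.02 and 1.52 in Δire1. The 3 strains did not overlap, although Δire1 replicate 2 (2.02) came within 0.043 of SSZ1OEΔire1Δscj1 replicate 2 (2.06). Against Δire1, COX7 rose 1.58-fold in SSZ1OEΔire1Δscj1, a log2 difference of 0.66 with an SE of 0.18 (limma adjusted p = 0.0238). In SSZ1OEΔire1 it rose 2.32-fold, a log2 difference of 1.21 with an SE of 0.20 (adjusted p = 0.0119). Between SSZ1OEΔire1Δscj1 and SSZ1OEΔire1 the difference of −0.56 (SE 0.20) did not pass (adjusted p = 0.103).

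The COX7 call in SSZ1OEΔire1 held under 17 of 21 alternatives, with differences of 1.102 to 1.39. Among others, it missed the threshold within slide row 1 (1.14, adjusted p = 0.0969), without SSZ1OEΔire1 replicate 1 (1.102, adjusted p = 0.0702) and without SSZ1OEΔire1 replicate 2 (1.33, adjusted p = 0.0807). In SSZ1OEΔire1Δscj1 the call held under 13 of 21 and ended, among others, within slide row 2 (0.80, adjusted p = 0.0612), without Δire1 replicate 1 (0.55, adjusted p = 0.0762) or 3 (0.59, adjusted p = 0.0799), and without SSZ1OEΔire1Δscj1 replicate 1 (0.57, adjusted p = 0.0812) or 3 (0.61, adjusted p = 0.0694).

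COX9, the small subunit VIIa, had levels of 1.23, 1.17 and 1.20 in SSZ1OEΔire1Δscj1, 1.74 and 1.62 in SSZ1OEΔire1, and 0.86, 1.30 and 0.85 in Δire1. The SSZ1OEΔire1 arrays lay above all others, and Δire1 replicate 2 lay above all SSZ1OEΔire1Δscj1 arrays. COX9 rose by 0.68 in SSZ1OEΔire1 against Δire1 (SE 0.14, limma adjusted p = 0.0249), a call that held under 12 of 21 alternatives and was lost when any array of SSZ1OEΔire1, Δire1 replicate 1 or Δire1 replicate 3 was left out (differences 0.60 to 0.74, adjusted p 0.07 to 0.135). The call was also lost with slide row as a block (0.60, adjusted p = 0.0786) and within slide row 1 (0.60, adjusted p = 0.199). Spike-in scaling, the replicate block and a fit of only the 2 groups ended it too. COX9 differed by 0.20 in SSZ1OEΔire1Δscj1 against Δire1 (adjusted p = 0.249) and by −0.48 in SSZ1OEΔire1Δscj1 against SSZ1OEΔire1 (adjusted p = 0.0646).

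Subunit V of the oxidase is encoded by COX5A, the aerobic form, and COX5B, the form favoured at low oxygen. COX5A had levels of 1.39, 1.44 and 1.31 in SSZ1OEΔire1Δscj1, 1.99 and 1.47 in SSZ1OEΔire1, and 1.73, 1.63 and 1.72 in Δire1. The SSZ1OEΔire1Δscj1 arrays lay below all other arrays, by −0.31 against Δire1 (SE 0.13, adjusted p = 0.0896) and by −0.35 against SSZ1OEΔire1 (SE 0.14, adjusted p = 0.142), neither of which passed. COX5B had levels of −0.29, −0.87 and −0.99 in SSZ1OEΔire1Δscj1, −0.99 and −0.36 in SSZ1OEΔire1, and −1.0, −0.20 and −0.96 in Δire1. Each strain held arrays near −1 and at least 1 array above −0.37, and the differences between strains were 0.00 to 0.04 in size (adjusted p 0.946 to 0.996). In SSZ1OEΔire1, where CYC7 was called higher, COX5B differed from Δire1 by 0.04 (SE 0.32), and these 2 differences were not tested against each other.

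The remaining oxidase subunits were not called. COX12 (subunit VIb) and COX13 (subunit VIa) differed from Δire1 by 0.36 and 0.26 in SSZ1OEΔire1Δscj1 and by 0.60 and 0.44 in SSZ1OEΔire1 (adjusted p 0.0643 to 0.122). COX13 did not overlap with Δire1 in either strain. COX4, COX6 and COX8 differed by −0.11 to 0.18 in SSZ1OEΔire1Δscj1 and by −0.16 to 0.21 in SSZ1OEΔire1, within the spread of the arrays.

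**Figure D3:**
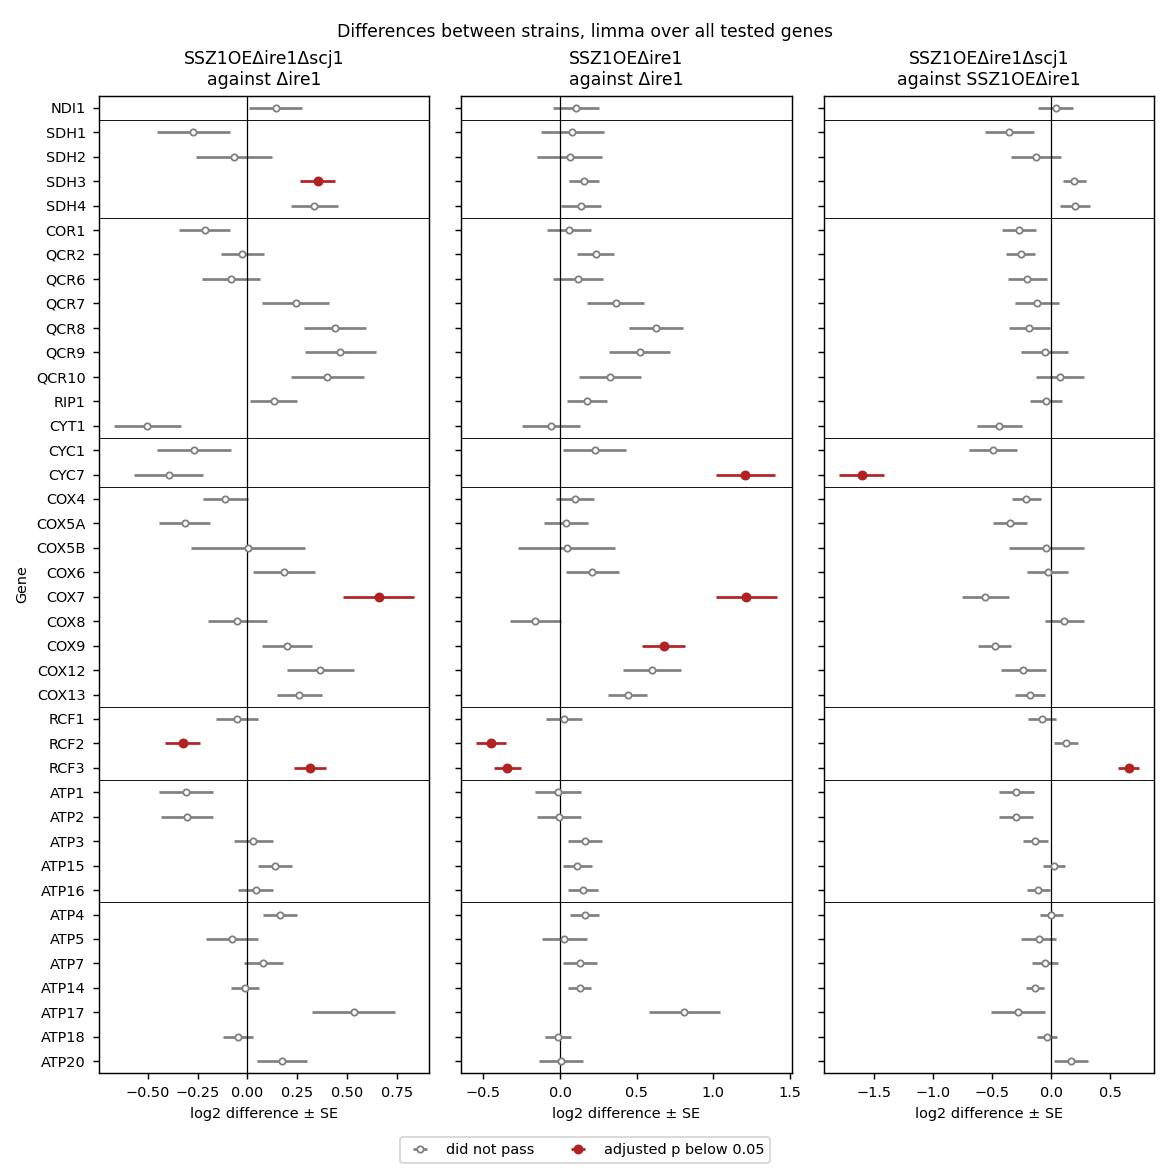
Log2 difference ± SE of each of the 40 genes (down the page, in blocks by complex) in SSZ1OEΔire1Δscj1 against Δire1, SSZ1OEΔire1 against Δire1 and SSZ1OEΔire1Δscj1 against SSZ1OEΔire1, with filled points where the limma adjusted p was below 0.05. COX7 and CYC7 stand at 1.21 in the middle panel, CYC7 at −1.60 in the panel on the right, and the ATP synthase genes have no filled point.

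The factors that associate with the joined bc1 and oxidase complexes behaved differently from one another. RCF1, a supercomplex assembly factor, differed by −0.08 to 0.03 over the comparisons and was not called. RCF2, also a supercomplex factor, had levels of 0.80, 0.84 and 0.71 in SSZ1OEΔire1Δscj1, 0.73 and 0.59 in SSZ1OEΔire1, and 1.13, 1.22 and 0.97 in Δire1. All arrays of both SSZ1-overexpressing strains lay below all Δire1 arrays. RCF2 fell by 0.32 on the log2 scale in SSZ1OEΔire1Δscj1 (SE 0.09, limma adjusted p = 0.0236) and by 0.45 in SSZ1OEΔire1 (SE 0.10, adjusted p = 0.0290).

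Within slide rows the RCF2 difference was −0.19 in SSZ1OEΔire1Δscj1 (row 2, adjusted p = 0.258) and −0.52 in SSZ1OEΔire1 (row 1, adjusted p = 0.14). Spike-in scaling turned the difference in SSZ1OEΔire1Δscj1 to 0.0894 (adjusted p = 0.761), and the row block ended that call too (−0.19, adjusted p = 0.276). It was also lost without Δire1 replicate 1 (adjusted p = 0.073) or SSZ1OEΔire1Δscj1 replicate 1 (adjusted p = 0.0633) or 3 (adjusted p = 0.0724), with differences of −0.33 to −0.29. In SSZ1OEΔire1 it was lost without SSZ1OEΔire1 replicate 1 (−0.52, adjusted p = 0.0803) or 2 (−0.38, adjusted p = 0.219), without Δire1 replicate 1 (−0.44, adjusted p = 0.0807) and without SSZ1OEΔire1Δscj1 replicate 1 (−0.45, adjusted p = 0.0547).

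RCF3, related to the N-terminal part of RCF2, was ordered SSZ1OEΔire1Δscj1, Δire1, SSZ1OEΔire1 with no overlap. Its levels were −4.99, −4.98 and −4.90 in SSZ1OEΔire1Δscj1, −5.61 and −5.62 in SSZ1OEΔire1, and −5.33, −5.13 and −5.34 in Δire1. RCF3 rose by 0.31 in SSZ1OEΔire1Δscj1 (SE 0.08, limma adjusted p = 0.0187) and fell by 0.35 on the log2 scale in SSZ1OEΔire1 (SE 0.09, adjusted p = 0.0464) against Δire1. It was 0.66 higher in SSZ1OEΔire1Δscj1 than in SSZ1OEΔire1 (SE 0.09, adjusted p = 0.0109).

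The last of these RCF3 calls held under 17 of 20 alternatives and missed the threshold without SSZ1OEΔire1 replicate 1 (0.66, adjusted p = 0.1), with slide row as a block (0.77, adjusted p = 0.188) and with spike-in scaling (0.97, adjusted p = 0.0612). The rise in SSZ1OEΔire1Δscj1 against Δire1 held under 13 of 21 and turned to −0.05 with quantile normalization. Neither array medians nor normexp background correction kept this call. It was lost without Δire1 replicate 1 (0.28, adjusted p = 0.068) or 3 (0.27, adjusted p = 0.0778) and without SSZ1OEΔire1Δscj1 replicate 3 (0.28, adjusted p = 0.0585). The fall in SSZ1OEΔire1 held under 6 of 21. Normexp background correction, keeping outlier spots and dropping the filter on dim probes each ended it. When single arrays were left out, the fall remained only without Δire1 replicate 2. Without each of the others the difference was −0.38 to −0.34 (adjusted p 0.0608 to 0.25).

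ATP synthase, which makes ATP from the proton gradient, had no called gene among the 12 of the set in any comparison. ATP19, an ATP synthase gene outside the 12, was called higher in SSZ1OEΔire1 against Δire1 (0.84, SE 0.20, limma adjusted p = 0.0373). Its difference of 0.32 in SSZ1OEΔire1Δscj1 against Δire1 did not pass (adjusted p = 0.188). Unadjusted p was under 0.05 for 2 of the 12 in SSZ1OEΔire1Δscj1 against Δire1, for 1 in SSZ1OEΔire1 against Δire1 and for 0 in SSZ1OEΔire1Δscj1 against SSZ1OEΔire1, against the same 48.5%, 28.6% and 31.8% of all tested genes. ATP17, subunit f of the membrane part, had levels of 2.03, 1.77 and 1.89 in SSZ1OEΔire1Δscj1, 2.23 and 2.12 in SSZ1OEΔire1, and 1.08, 1.88 and 1.13 in Δire1. Δire1 replicate 2 reached the level of SSZ1OEΔire1Δscj1, while Δire1 replicates 1 and 3 lay far below every other array. The difference from Δire1 was 0.53 in SSZ1OEΔire1Δscj1 (SE 0.21, adjusted p = 0.0774) and 0.81 in SSZ1OEΔire1 (SE 0.23, adjusted p = 0.0636).

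The F1 subunits alpha and beta, ATP1 and ATP2, differed by −0.31 and −0.30 in SSZ1OEΔire1Δscj1 (adjusted p = 0.107 and 0.101) and by −0.01 and −0.00 in SSZ1OEΔire1 (adjusted p = 0.968 and 0.989) against Δire1. ATP3, ATP15 and ATP16, the gamma, epsilon and delta subunits of F1, differed by 0.03 to 0.14 in SSZ1OEΔire1Δscj1 and by 0.11 to 0.16 in SSZ1OEΔire1. Stalk and membrane subunits other than ATP17 (ATP4, ATP5, ATP7, ATP14, ATP18 and ATP20) differed by −0.08 to 0.17 and by −0.01 to 0.16 in the same comparisons. No gene of these groups was called.

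The deviation of Δire1 replicate 2 differed in sign between subunits. Its level exceeded the mean of Δire1 replicates 1 and 3 by more than 0.4 for 11 of the 40 genes (27.5%), where 13.5% of all tested genes did so, and it lay below by more than 0.4 for 1 gene, SDH2 (−0.44), or 2.5%, where 5.61% of all tested genes did so. The 11 were ATP17, COX5B, QCR9, QCR8, CYC7, COX7, COX12, QCR10, QCR7, COX6 and COX9. The lowest after SDH2 were SDH1 at −0.39, CYT1 at −0.36, COR1 and ATP1 at −0.31 and ATP2 at −0.28. Over the 40 genes the median size of the deviation was 0.30, against 0.20 over all tested genes, whereas Δire1 replicates 1 and 3 differed over the 40 by a median of 0.034, against 0.056 over all tested genes.

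**Figure D4:**
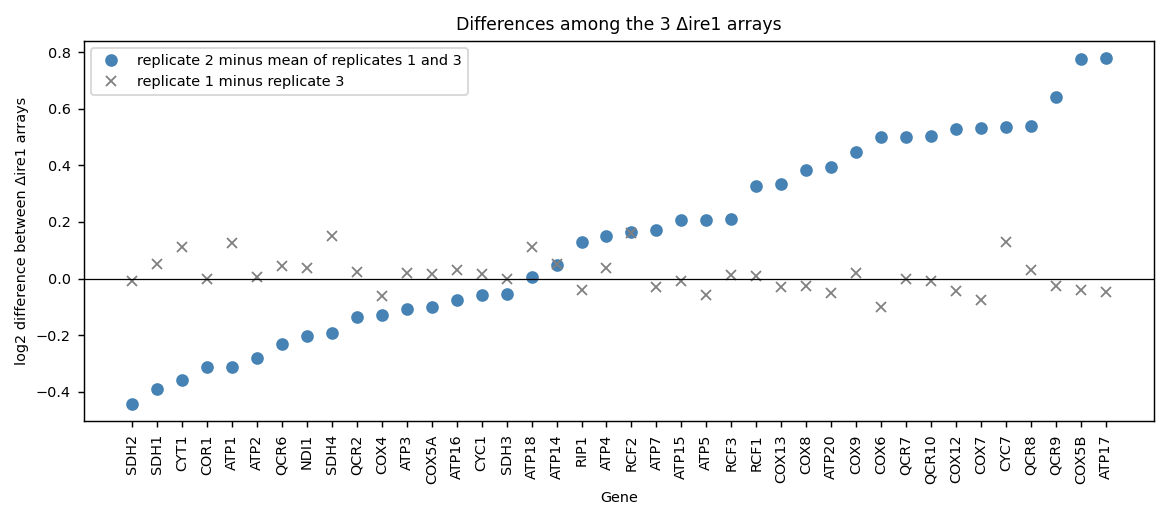
For each of the 40 genes, the log2 level of Δire1 replicate 2 minus the mean of Δire1 replicates 1 and 3, beside the difference between Δire1 replicates 1 and 3. ATP17, COX5B, QCR9 and QCR8 lie furthest above 0 and SDH2, at −0.44, furthest below, while the differences between replicates 1 and 3 stay near 0.

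Leaving out Δire1 replicate 2 raised the calls in the set and over the whole genome. In SSZ1OEΔire1Δscj1 against Δire1, 17 of the 40 genes were then called, including the 4 called with all arrays, where 50.7% of all tested genes were called (27.2% higher and 23.5% lower). Of the 17, 13 were higher, among them COX7, ATP17, QCR9, QCR8 and QCR10, and 4 were lower. The lower ones were RCF2 (−0.27) together with CYT1 (−0.62), ATP1 (−0.41) and ATP2 (−0.39), which encode a catalytic subunit of the bc1 complex and the alpha and beta subunits of F1. In SSZ1OEΔire1 against Δire1, 11 were called, including the 5 called with all arrays, where 24.1% of all tested genes were called (14.6% higher and 9.47% lower). The 9 higher were CYC7 (1.39), COX7 (1.39), ATP17 (1.07), COX9 (0.83), QCR8 (0.80), COX12 (0.77), QCR9 (0.73), COX13 (0.55) and QCR7 (0.53), and RCF2 and RCF3 were lower. Between SSZ1OEΔire1Δscj1 and SSZ1OEΔire1, 4 were called (24.4% of all tested genes, 12.3% higher and 12.2% lower), with RCF3 higher and CYC7, COX7 and COX9 lower. This omission was made after the deviation had been seen, and the Δire1 group then rests on 2 arrays that differ less than replicates elsewhere.

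Slide row was set against strain where the layout allowed it. Within row 1, SSZ1OEΔire1 against Δire1 gave 0 calls among the 40 by limma (1.2% of all tested genes), with 5 at an unadjusted p under 0.05 (16.8% of all tested genes). Within row 2, SSZ1OEΔire1Δscj1 against the single Δire1 array there gave 3, with ATP17 (0.77, adjusted p = 0.0359), QCR8 (0.63, adjusted p = 0.0304) and QCR9 (0.66, adjusted p = 0.0413) higher (18.5% of all tested genes), under the assumption that the lone array varies like the others. With row as a block, 0 of the 40 were called in SSZ1OEΔire1Δscj1 against Δire1 (17.1% of all tested genes; 6 of the 40 at an unadjusted p under 0.05) and 3 in SSZ1OEΔire1 against Δire1 (4.04%), where CYC7 (1.09, adjusted p = 0.0357) and COX7 (1.14, adjusted p = 0.0428) were higher and RCF2 (−0.52, adjusted p = 0.0428) lower. In SSZ1OEΔire1Δscj1 against SSZ1OEΔire1 that fit called 0 of the 40 and 0.032% of all tested genes, with 2 of the 40 at an unadjusted p under 0.05.

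Related genes outside the 40 were read in the same fits. Of 15 further subunits, inhibitors and carriers of oxidative phosphorylation, 4 rose and 2 fell in SSZ1OEΔire1Δscj1 against Δire1 (40%, against 38.3% of all tested genes). In SSZ1OEΔire1, 4 rose and 0 fell against Δire1 (26.7%, against 11.4%), and 0 rose and 1 fell in SSZ1OEΔire1Δscj1 against SSZ1OEΔire1 (6.67%, against 11.9%). YJL045W, a minor form of the succinate dehydrogenase flavoprotein, rose 4.86-fold in SSZ1OEΔire1Δscj1 (adjusted p = 0.00167) and 4.14-fold in SSZ1OEΔire1 (adjusted p = 0.00980), although SDH1 itself was not called. STF1, which stabilises the complex of ATP synthase with its inhibitor, rose by 1.02 and 0.90 in these comparisons (adjusted p = 0.00329 and 0.0194), and AAC1, a minor ADP/ATP carrier, by 0.96 and 0.84 (adjusted p = 0.000553 and 0.00422). PET9, the major ADP/ATP carrier, fell by 0.44 on the log2 scale in SSZ1OEΔire1Δscj1 against Δire1 (adjusted p = 0.0197) and by 0.69 against SSZ1OEΔire1 (adjusted p = 0.0204). Its difference of 0.25 in SSZ1OEΔire1 against Δire1 did not pass (adjusted p = 0.251). SHH3, also of this list, rose by 1.87 in SSZ1OEΔire1Δscj1 against Δire1 (adjusted p = 0.0106). The SHH3 difference of 0.96 in SSZ1OEΔire1 against Δire1 did not pass (adjusted p = 0.216). Whether a probe of these minor forms also binds the related gene was not examined.

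Of 47 assembly and translation factors for the complexes, 5 rose and 13 fell in SSZ1OEΔire1Δscj1 against Δire1. The share called, 38.3%, was that of all tested genes, of which 21.3% rose and 16.9% fell. Of the 47 differences, 16 were above 0 and 31 below (median −0.11, against 0.02 over all tested genes). Without overlap, 6 lay above and 17 below, where the shares of all tested genes were 27.3% and 23.3%. In SSZ1OEΔire1, 2 rose and 0 fell against Δire1 (4.26%, against 11.4%), and 0 rose and 1 fell in SSZ1OEΔire1Δscj1 against SSZ1OEΔire1 (2.13%, against 11.9%). SDH6 and SDH8, both assembly factors of succinate dehydrogenase, rose in both strains against Δire1, SDH6 by 1.75 and 1.85 (adjusted p = 0.00249 and 0.00908) and SDH8 by 0.74 and 0.45 (adjusted p = 0.00202 and 0.0394) in SSZ1OEΔire1Δscj1 and SSZ1OEΔire1. PET117, an oxidase assembly factor, fell by 0.63 on the log2 scale in SSZ1OEΔire1Δscj1 (adjusted p = 0.00439), and CBP1, which stabilises cytochrome b mRNA, fell by 0.31 against SSZ1OEΔire1 (adjusted p = 0.0343).

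Of 7 tested genes encoded in mitochondrial DNA, which are partner subunits apart from the ribosomal protein gene VAR1, 1 rose in each strain against Δire1. This share of 14.3% stood against 38.3% of all tested genes in SSZ1OEΔire1Δscj1 and 11.4% in SSZ1OEΔire1. The gene was COX2, subunit II of the oxidase, which rose by 0.52 in SSZ1OEΔire1Δscj1 (adjusted p = 0.0295) and by 0.70 in SSZ1OEΔire1 (adjusted p = 0.0394). OLI1, the ring subunit of ATP synthase, was lower by −0.48 in SSZ1OEΔire1Δscj1 than in SSZ1OEΔire1 (adjusted p = 0.0338), the only call there (14.3%, against 11.9%). In SSZ1OEΔire1 against Δire1 all 7 differences were above 0 (median 0.48), and 6 lay above without overlap (26.9% of all tested genes did). In SSZ1OEΔire1Δscj1 against Δire1, 5 were above 0 and 2 below (median 0.15). There 1 lay above and 1 below without overlap, where 27.3% and 23.3% of all tested genes did. All 7 were lower in SSZ1OEΔire1Δscj1 than in SSZ1OEΔire1 (median −0.27). Of these, 2 (28.6%) lay below without overlap, near the 29.5% of all tested genes. Labelling was primed with oligo-dT, which may not read mitochondrial transcripts in proportion to their amount. ATP6 was not well above background on any array, whereas OLI1 had levels of 5.49 to 6.19.

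Of 7 transcription factors of respiratory genes, HAP1, a heme-dependent activator of CYC1, CYC7 and CYT1, was lower in both strains. Its levels were −0.72, −0.61 and −0.77 in SSZ1OEΔire1Δscj1, −0.87 and −1.12 in SSZ1OEΔire1, and −0.36, −0.44 and −0.30 in Δire1. No array of either strain reached the Δire1 range, with differences of −0.34 (SE 0.09, adjusted p = 0.0225) and −0.63 (SE 0.10, adjusted p = 0.0113), and SSZ1OEΔire1Δscj1 against SSZ1OEΔire1 did not pass (0.30, adjusted p = 0.0921). HAP4 had levels of −1.32, −0.51 and −1.06 in SSZ1OEΔire1Δscj1, −0.58 and −0.63 in SSZ1OEΔire1, and −1.17, −1.22 and −1.31 in Δire1. Both SSZ1OEΔire1 arrays lay above Δire1, but the difference did not pass (0.63, SE 0.21, adjusted p = 0.0943), and the SSZ1OEΔire1Δscj1 arrays spanned the whole range (0.27, adjusted p = 0.291).

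HAP3, a DNA-binding subunit of the Hap complex, rose by 0.21 in SSZ1OEΔire1Δscj1 (adjusted p = 0.0399), and HAP2 and HAP5 were not called. ROX1, a repressor of genes used at low oxygen, had a difference of 0.46 in SSZ1OEΔire1 against Δire1 (SE 0.19, adjusted p = 0.16), and MOT3, which acts with it, had one of −0.01 (adjusted p = 0.985). Neither passed. Of the 7 factors, limma called 2 in SSZ1OEΔire1Δscj1 against Δire1 (28.6%, against 38.3% of all tested genes) and 1 in SSZ1OEΔire1 against Δire1 (14.3%, against 11.4%). Between SSZ1OEΔire1Δscj1 and SSZ1OEΔire1, limma called 0 of the 7, where 11.9% of all tested genes were called, with 1 at an unadjusted p under 0.05.

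Supply routes of the chain were read in the same way. Of 14 tricarboxylic acid cycle genes, 2 rose and 2 fell in SSZ1OEΔire1Δscj1 against Δire1 (28.6%, against 38.3% of all tested genes), and 1 rose and 1 fell in each of the other comparisons (14.3%, against 11.4% and 11.9%). CIT3, a minor mitochondrial citrate synthase, rose by 1.83 in SSZ1OEΔire1Δscj1 (adjusted p = 0.000644) and by 0.94 in SSZ1OEΔire1 (adjusted p = 0.0233) against Δire1. The lowest differences among the 14 genes were −1.09 and −0.82 in the same comparisons. Of 11 ubiquinone synthesis genes, 2 rose in SSZ1OEΔire1Δscj1 against Δire1, COQ11 by 0.47 and COQ9 by 0.28 (18.2%, against 38.3% of all tested genes). In SSZ1OEΔire1 against Δire1, limma called 0, where 11.4% of all tested genes were called, with 1 at an unadjusted p under 0.05. COQ5 was lower by −0.34 in SSZ1OEΔire1Δscj1 than in SSZ1OEΔire1 (adjusted p = 0.0421), the only call there (9.09%, against 11.9%).

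Heme is the cofactor of the cytochromes. Of 8 heme synthesis genes, HEM1, HEM3 and HEM12 fell in SSZ1OEΔire1Δscj1 against Δire1 by 0.38, 0.32 and 0.32 on the log2 scale (adjusted p 0.0178 to 0.0297), and HEM12 fell by 0.36 in SSZ1OEΔire1 (adjusted p = 0.0421). These calls were 37.5% and 12.5% of the 8 genes, near the 38.3% and 11.4% of all tested genes called (16.9% and 3.88% lower). Of 53 tested genes of the mitochondrial ribosome, which makes the subunits encoded in mitochondrial DNA, 18 fell and 0 rose in SSZ1OEΔire1Δscj1 against Δire1, where 16.9% of all tested genes were lower and 21.3% higher. MRPL3, MRPL4 and MRPL19 fell furthest, by 0.59, 0.58 and 0.57. Against Δire1, 1 of the 53 fell in SSZ1OEΔire1 (1.89%, where 11.4% of all tested genes were called). The median difference there was −0.07, against −0.20 in SSZ1OEΔire1Δscj1.

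**Figure D5:**
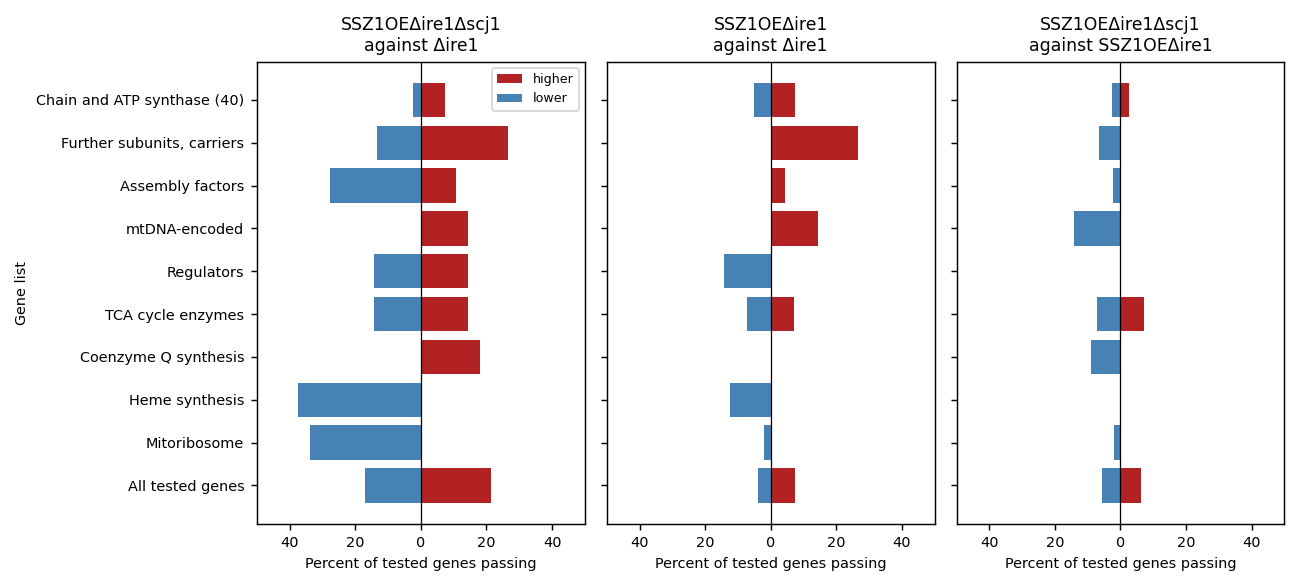
Percent of the tested genes of each group called higher or lower (x axis) in the 3 comparisons, for the 40 respiratory chain and ATP synthase genes, for related groups and for all tested genes. The 40 genes have 10%, 12.5% and 5% called, against 38.3%, 11.4% and 11.9% of all tested genes.

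Markers of mating type differed mainly between SSZ1OEΔire1Δscj1 and the other strains. Of 7 genes specific to a-cells, 6 fell in SSZ1OEΔire1Δscj1 against Δire1 (85.7%, where 16.9% of all tested genes were lower). Against SSZ1OEΔire1, 4 fell (57.1%, where 5.57% of all tested genes were lower). In SSZ1OEΔire1 against Δire1, limma called 0 of the 7, where 11.4% of all tested genes were called. Their summed level was 1.98 to 2.38 in SSZ1OEΔire1Δscj1, 2.64 to 3.03 in SSZ1OEΔire1 and 2.90 to 2.97 in Δire1 (log2 of the summed relative signal). Of 5 genes specific to alpha-cells, 3 rose in SSZ1OEΔire1Δscj1 against Δire1 and 3 against SSZ1OEΔire1 (60% each, where 21.3% and 6.28% of all tested genes were higher). In SSZ1OEΔire1 against Δire1 only STE3 was called (20%, where 7.48% of all tested genes were higher), and 2 differences were above 0 and 3 below. The summed level was −0.60 to −0.51 in SSZ1OEΔire1Δscj1, −1.64 to −1.36 in SSZ1OEΔire1 and −1.61 to −1.55 in Δire1. STE3, the receptor for a-factor, rose by 3.07 in SSZ1OEΔire1Δscj1 (adjusted p = 0.000105) and by 2.12 in SSZ1OEΔire1 (adjusted p = 0.00214), while the pheromone gene MF(ALPHA)2 was well above background on 5 of the 8 arrays. Their part in the differences of the respiratory genes was not tested.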

How the data were processed

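Spot intensity values of 8 one-colour arrays were deposited by the authors. Per the submitters' processing notes, the scanner software was Agilent Feature Extraction, version 10.7.1.1. Background had been subtracted from the processed intensity and no scaling between arrays applied, per the file headers. The third SSZ1OEΔire1Δscj1 file holds values to 3 significant digits. The authors also deposited log2 values with no stated scale or centring; they lay close to the values used here with each probe's median removed (r = 1.00 per array, median absolute difference 0.00098 to 0.0039). The array design was built on sacCer1 per the file headers, so no coordinates are given.

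Spots of a probe were averaged on the log2 scale without outlier spots (1.10% to 1.57%), the 75th percentile of the array was subtracted, and the brightest probe stood for each name. A probe passed on an array if over 0.5 of its spots were well above background, and it was tested if it passed throughout at least 1 group. Group means over all 8 arrays were fitted in R 4.3.3 by limma 3.58.1 (two-sided tests; files read with the package data.table, version 1.17.8), with Benjamini-Hochberg adjustment over all 6244 tested names at 0.05. Of these steps, only the limma fit and its adjustment were tested on simulated data. Symbols came from a RefSeq table of assembly R64, which matched 5903 of 6576 names. The number of arrays limits the precision.

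The 40 genes and the other gene lists were chosen with earlier results of these data known, so no list was tested as a set. Named genes were those called in any comparison, the 3 with the highest absolute difference per comparison, the isoform pairs COX5A/COX5B and CYC1/CYC7, and the regulators. Some called genes of the further lists were also named, not in every case only those of largest difference. Other members are given with their complex. Alternatives changed the scaling, background correction, source of values, filter, probe choice, slide row, replicate block and arrays included. Some alternatives were the same fit and are no separate support, although each was counted. For SSZ1OEΔire1Δscj1 against Δire1, leaving out either SSZ1OEΔire1 array equals fitting only the 2 groups. For SSZ1OEΔire1 against Δire1, the row block equals leaving out Δire1 replicate 3. The mean spot signal needed for a planned normexp correction was not used; the median spot signal (offset 50) replaced it, chosen after seeing the data. The labels state no pairing, and replicate numbers were not taken to pair the samples.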

Additional observations from a re-analysis of the deposited data

How the results depend on the processing

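Across the alternatives, the differences of the 11 named genes over the 3 comparisons kept their direction and side of the threshold in 557 cases, lost the call in 67, gained it in 27 and changed sign in 31. Identical fits were counted each time. The number of the 40 genes called in SSZ1OEΔire1Δscj1 against Δire1 (4) became 8 with quantile normalization, 10 with spike-in scaling, of which 0 were lower, and 0 with slide row as a block, and ranged from 1 (without Δire1 replicate 1 or 3) to 17 (without Δire1 replicate 2) when 1 array was left out. In SSZ1OEΔire1 against Δire1 (5) it became 8 with quantile normalization, 2 with spike-in scaling, 3 with row as a block, 0 within row 1 and 2 with only the 2 groups in the fit, and ranged from 0 (without either SSZ1OEΔire1 array) to 11 (without Δire1 replicate 2). In SSZ1OEΔire1Δscj1 against SSZ1OEΔire1 (2) it became 1 with spike-in scaling and 0 with row as a block, and ranged from 0 (without SSZ1OEΔire1 replicate 1) to 4 (without SSZ1OEΔire1 replicate 2 or Δire1 replicate 2). Spike-in scaling moved the median of all tested genes to 0.43, 0.13 and 0.30 in the 3 comparisons in this order, and that of the 40 genes to 0.448 in the first and 0.184 in the third. Leaving out 1 array gave medians of 0.0020 to 0.088, 0.027 to 0.265 and −0.279 to 0.0045. With the replicate number as a block, 3, 1 and 2 of the 40 were called. Same-numbered arrays correlated at −0.038 to 0.206 in their deviations, with 4 of 7 pairs over 0.1. Differently numbered arrays of different strains correlated at −0.152 to 0.129. Since the labels state no pairing, the numbers were not taken as pairs, and a pairing is not excluded.

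Among all tested genes, the share of calls that were higher was 55.8%, 65.9% and 53.0%. It was 38.6%, 51.7% and 44.97% with array medians, 40.6%, 47.3% and 53.5% with quantile normalization, and 97.9%, 89.8% and 93.1% with spike-in scaling, and in the last comparison 39.4% with normexp. With array medians 1 of the 40 was higher and 5 were lower in SSZ1OEΔire1Δscj1 against Δire1.

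Sign changes touched mostly genes with no call. In SSZ1OEΔire1Δscj1 against Δire1, spike-in scaling gave 0.0993 for COX5A, 0.145 for CYC1, 0.0202 for CYC7 and 0.0894 for RCF2, and quantile normalization gave −0.0500 for RCF3. COX5B there was −0.0997 with array medians, −0.0513 with quantile normalization, and with 1 array left out it ranged from −0.210 (without SSZ1OEΔire1Δscj1 replicate 1) to 0.262 (without Δire1 replicate 2), with −0.137 and −0.117 without Δire1 replicates 1 and 3. In SSZ1OEΔire1 against Δire1, COX5A was −0.0231 with array medians and −0.222 without SSZ1OEΔire1 replicate 1, and CYC1 was −0.169 without that array and 0.619 without SSZ1OEΔire1 replicate 2. CYT1 was 0.0436 with spike-in scaling, −0.332 and 0.210 without SSZ1OEΔire1 replicates 1 and 2, and 0.0265 without Δire1 replicate 1. COX5B was −0.0171 with array medians, −0.0767 with row as a block, within row 1 and without Δire1 replicate 3, −0.0854 with the replicate block, 0.357 and −0.271 without SSZ1OEΔire1 replicates 1 and 2, and −0.0964 without Δire1 replicate 1. In SSZ1OEΔire1Δscj1 against SSZ1OEΔire1, ATP17 was 0.0301 with spike-in scaling and 0.0756 with row as a block, and COX5B was 0.268, 0.319 and 0.0880 with spike-in scaling, row block and replicate block, −0.354 and 0.273 without SSZ1OEΔire1 replicates 1 and 2, and 0.0355 and 0.0967 without SSZ1OEΔire1Δscj1 replicates 2 and 3. The causes were not tested.

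With 2 or 3 arrays a group, a single array can end a call, and strain and slide row are only partly separable through Δire1. The strains SSZ1OEΔire1Δscj1 and SSZ1OEΔire1 share no row, so no within-row value exists for them. Normexp on the mean spot signal was not run. Median signals of negative control spots were 9.49 to 14.4 in row 2 and 3.55 to 5.05 in row 1.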
